A study of Saccharomyces cerevisiae with 6 samples.

Results

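The SEC genes of *Saccharomyces cerevisiae* were first found in screens for yeast that fail to secrete proteins. They were taken here as every row of the count table whose name is SEC followed by a number, which gave 36 of 6400 genes. The 36 were grouped by the step at which their products act: 7 in translocation into the endoplasmic reticulum (ER), 17 in vesicle coats and transport through the Golgi, 10 in exocytosis and 2 in the making of glycan precursors, the last group being outside the 3 steps of transport. All 36 passed the filter on low counts, with 1966 to 32471 reads in each library.

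The RNA came from 6 cultures, 3 of the evolved strain CX01F and 3 of the strain it came from, CX01, called biological replicates in the labels. Cells went from YPD, a rich medium, to Delft, a defined minimal medium, for 16 h, and then to Delft with 1% methanol in place of glucose, and they were harvested at an OD600 of about 1.0 from shake flasks at 30 °C and 200 rpm. The genotype label is the same for both strains. It names P. Paox1-SKL and P. Pdas1-skl, then P. pDAK with B. mMDH3-skl and B. mACT1-skl, further P. pPYC, then P. sXR with P. sXDH and P. sXK, and it adds PEX5 along with ∆PEX31 and ∆PEX32, and lastly S.c MDH2 next to S. cMDH3 and S. Cnde1. The labels do not say whether CX01F is 1 clone, and they give no age, date or batch, so the effects of strain and of handling cannot be told apart.

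Library totals ran from 51537969 to 63183824 counts, and correlations of log2 CPM (counts per 1e6 counted reads) across genes were 0.999 within a strain and 0.875 to 0.88 between strains. PEX31, labelled as deleted, had 0 or 1 count in each library, whereas PEX32, also labelled as deleted, had 167 to 279. Most genes differed between the strains: the edgeR quasi-likelihood test called 91.4% of the 6129 tested genes at an adjusted p under 0.05, 45.5% higher and 45.9% lower in CX01F. CPM values here are scaled by TMM, a scaling that assumes most genes to be unchanged. They give a gene's share of the RNA of a culture, in which less RNA per cell and fewer cells that express a gene cannot be told apart.

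As background, secretory and membrane proteins enter the ER through the Sec61 channel, leave it in vesicles coated by COPII, are returned from the Golgi by vesicles coated by COPI, and reach the plasma membrane in vesicles that are held there by the exocyst. Each fusion step needs SNARE proteins, which pair between membranes, and the ATPase Sec18 with its adaptor Sec17, which take the pairs apart again. In budding yeast this route serves bud growth, the cell wall and the transporters of the cell surface.

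Of the 36 SEC genes, CX01F had 20 higher and 12 lower, and the other 4 did not pass the test. The share called, 88.9%, lay beside 91.4% of all tested genes. The 3 libraries of CX01F lay apart from the 3 of CX01 for 32 SEC genes, or 88.9%, against 91.9% of all tested genes. With TMM the changes were small beside those of all tested genes. The median absolute log2 change of the SEC genes was 0.23, and that of all tested genes was 0.60. A change under 1.5-fold was found in 28 of the 36 (77.8%), against 48.8% of all tested genes. The 2 sets are not alike: 24 of the 36 lay above the median level of all tested genes in CX01. Only 1 of the 36 is on chromosome XI or XV, where coding genes lay lower in CX01F. The part of these differences was not tested. Changes of 2-fold or more were seen in SEC28 and SEC11, both higher (SEC11 was at log2 0.89 with library size only), and SEC17 fell most, by 0.71 on the log2 scale. Of all tested genes 16.1% were at least 2-fold higher and 14.6% at least 2-fold lower.

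The balance of directions rested on the scaling. With TMM the median log2 change of the SEC genes was 0.16, against -0.0020 for all tested genes. When libraries were scaled by their size only, log2 changes moved down together (a median shift of -0.207), and 11 SEC genes were then higher and 17 lower, against 36.2% and 55.6% of all tested genes. Upper-quartile scaling gave 14 SEC genes higher and 17 lower, against 38.6% and 52.8%. Without the genes of chromosomes XI and XV, whose coding genes lay lower than the rest in CX01F, 17 SEC genes were higher and 15 lower, against 44.5% and 46.3% of the genes then tested. The median of the SEC genes lay above that of all tested genes by 0.165 with TMM and with library size only, and by 0.0877 without these chromosomes. The value under library size only is given for each SEC gene whose direction or call it changed.

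**Figure D1:**
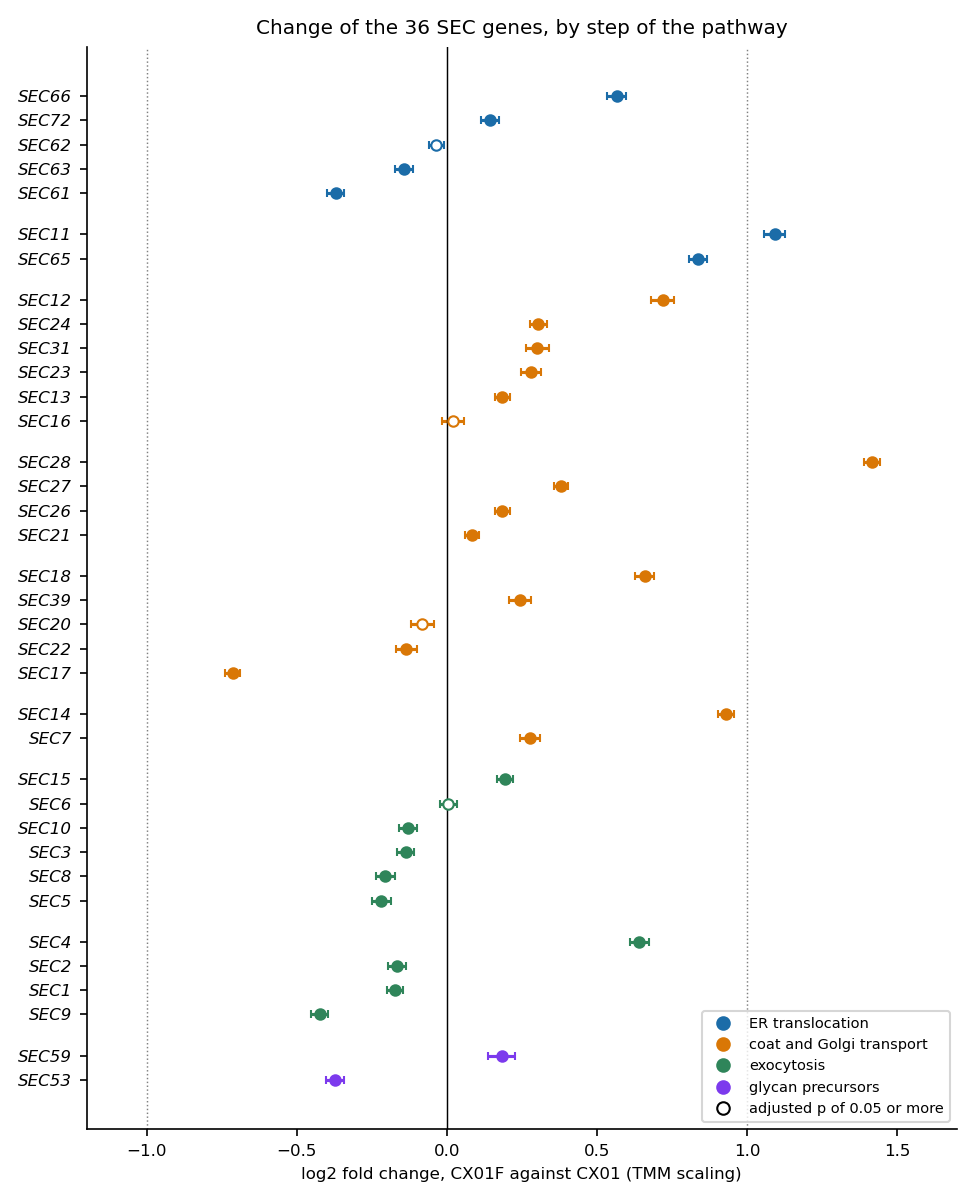
Log2 fold change of each of the 36 SEC genes in CX01F against CX01 (TMM scaling, n = 3 libraries per strain), grouped by role from the translocon at the top to the glycan precursors at the bottom; bars are the standard error, open points are the 4 genes that did not pass the test and dotted lines mark 2-fold. SEC28 and SEC11 lie beyond 2-fold and SEC17 is lowest at -0.71; with library size only the points would lie about 0.21 further left.

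With TMM most coat and Golgi genes were higher and most exocytosis genes lower, where all tested genes were 45.5% higher and 45.9% lower. In ER translocation 4 of 7 SEC genes were higher and 2 lower. In coats and Golgi transport 13 of 17 (76.5%) were higher and 2 lower, with a median log2 change of 0.28. In exocytosis 2 of 10 were higher and 7 (70.0%) lower, with a median of -0.15. With library size only 36.2% of all tested genes were higher and 55.6% lower. The coat and Golgi genes then stood at 7 higher and 5 lower and the exocytosis genes at 1 higher and 8 lower. The same shares of all tested genes belong beside each partner count given below with library size only. Beside each partner count with TMM belong 45.5% higher and 45.9% lower. Summed over its 17 genes, the coat and Golgi group held 3772, 3887 and 3758 CPM in CX01F and 3133, 3235 and 3118 CPM in CX01, whereas the 10 exocytosis genes held 1284, 1281 and 1268 CPM in CX01F and 1351, 1371 and 1339 CPM in CX01. These counts and sums describe the groups, and the difference between groups was not tested.

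ER translocation begins with the signal recognition particle, which binds signal peptides as they leave the ribosome, and ends with signal peptidase, which cuts them off inside the ER. SEC11, the catalytic subunit of signal peptidase, was at 90.2, 87.4 and 87 CPM in the CX01F libraries and 41, 39.7 and 43.4 CPM in the CX01 libraries. It was 2.13-fold higher in CX01F, with no overlap between the strains (edgeR log2 1.09, SE 0.0357, adjusted p = 4.95e-13). Its partners in the enzyme, named here after their values were seen, were higher too. SPC3, a subunit needed for cleavage, was at 62.2 ± 1.37 CPM in the evolved strain and 23.3 ± 0.61 CPM in the parent (log2 1.42, adjusted p = 2.75e-14), and SPC2 was at log2 1.09 and SPC1 at 0.47. Per kilobase of coding length SEC11 stood at 175 ± 3.55 CPM per kb in CX01F and 82.1 ± 3.75 in CX01, the highest of the 4 subunits in each strain, although in CX01 SPC1 (78.4 CPM per kb) was within its SD.

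SEC65, the yeast counterpart of SRP19 in the signal recognition particle, was at 92.3, 92.4 and 94.2 CPM in the CX01F libraries and 53.3, 50.5 and 52.5 CPM in the CX01 libraries. It was 1.79-fold higher (log2 0.84, SE 0.03, adjusted p = 1.5e-12). The other subunits of the particle did not move together. SRP68 and SRP72, which form its scaffold, were at log2 0.46 and 0.46. SRP54, the subunit that binds the signal peptide, was lower at -0.22, and SRP21, a small subunit encoded on chromosome XI, fell most (69.8 ± 1.2 CPM in the evolved strain and 139.6 ± 1.08 CPM in the parent, adjusted p = 4.44e-14). SRP14 did not pass the test (log2 0.013, adjusted p = 0.784) and was at -0.19 with library size only. In CX01 the levels of the 6 subunits per kilobase spanned 4.51-fold, with SRP21 highest and SRP68 lowest. In CX01F they spanned 1.64-fold, and the share of SEC65 in the summed level of the particle was 17.4% ± 0.248 in CX01F and 8.87% ± 0.131 in CX01. SRP21 held 21.2% ± 0.108 of that level in CX01F and 38.8% ± 0.312 in CX01. The spans and shares thus rest in part on this 1 gene of chromosome XI. Of the 10 partners listed for this role, receptor subunits included, 6 were higher, 3 lower and 1 not called with TMM. Of all tested genes 45.5% were then higher and 45.9% lower. With library size only 6 of these partners were higher and 4 lower, against 36.2% and 55.6% of all tested genes.

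The subunits of the channel went both ways. SEC61, which forms its pore, was at 366, 384 and 367 CPM in the CX01F libraries and 475, 479 and 489.8 CPM in the CX01 libraries. It fell in CX01F (log2 -0.37, SE 0.0276, adjusted p = 8.43e-09), and its levels per kilobase, 258 ± 6.93 CPM per kb in CX01F and 334 ± 5.3 in CX01, were the second highest of the 36 in CX01F and the highest in CX01. Of its small subunits SBH1 was lower (log2 -0.44) and SSS1 higher (0.47). SSH1, the pore of a second channel, was at 294 ± 1.35 CPM in the evolved strain and 194 ± 7.75 CPM in the parent (log2 0.60, adjusted p = 7.93e-11). The ratio of SEC61 to SSH1 per kilobase was 1.29 ± 0.0289 in CX01F and 2.53 ± 0.0791 in CX01 (SD, n = 3). SBH2, the partner of SSH1, was at log2 0.11 with TMM and at -0.10 with library size only.

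Sec62, Sec63, Sec66 and Sec72 join the channel for import after translation. SEC66 was at 74.3, 72.5 and 73.3 CPM in the CX01F libraries and 51.4, 48.4 and 48.9 CPM in the CX01 libraries and rose (log2 0.57, SE 0.0316, adjusted p = 2.78e-10). SEC72 was at log2 0.14 (adjusted p = 0.000453), which turned to -0.064 with library size only. SEC62 was at 162, 162 and 163 CPM in the CX01F libraries and 166, 170.2 and 162 CPM in the CX01 libraries, overlapping between the strains, and did not pass the test (log2 -0.035, adjusted p = 0.219). With library size only it was called lower (log2 -0.24, adjusted p = 7.22e-07). SEC63, whose J domain calls the chaperone Kar2 to the channel, was slightly lower (241 ± 1.9 CPM in the evolved strain and 266 ± 10.3 CPM in the parent, log2 -0.14, adjusted p = 0.000446). It is the only 1 of the 36 on chromosome XI or XV, where coding genes had median log2 changes of -0.82 and -0.86, and 79.5% of the coding genes of XV had a lower log2 change than SEC63. Among the 7 partners of the translocon, 3 were higher and 4 lower (2 and 5 with library size only). KAR2 itself, the ER Hsp70 that pulls chains through the channel, fell 3.73-fold (879 ± 18.6 CPM in the evolved strain and 3276 ± 86 CPM in the parent, log2 -1.90, adjusted p = 2.55e-16) and is on neither of these chromosomes.

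COPII buds vesicles from the ER. SEC12, the exchange factor that loads Sar1 with GTP to start a coat, changed most of its 6 SEC genes. It was at 89.9, 83.3 and 82.4 CPM in the CX01F libraries and 51, 53.9 and 50.2 CPM in the CX01 libraries, 1.65-fold higher without overlap (log2 0.72, SE 0.0391, adjusted p = 2.02e-10). The subunits of the coat proper were higher by smaller steps. SEC24, which selects cargo, was at log2 0.31, SEC31, an outer cage subunit, at 0.30, SEC23, which activates GTP hydrolysis by Sar1, at 0.28, and SEC13, the other cage subunit, at 0.18. With library size only SEC23 did not pass (log2 0.073, adjusted p = 0.053) and SEC13 was at -0.023. Of the summed level of these 4 subunits per kilobase, SEC13 held 38.2% ± 0.694 in CX01F and 40.1% ± 1.2 in CX01, and SEC31 held 17.8% ± 0.568 in CX01F and 17.2% ± 0.394 in CX01. SEC13 also serves in the nuclear pore and in a complex at the vacuole.

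SEC16, the scaffold of ER exit sites, was at 248, 263 and 242 CPM in the CX01F libraries and 241, 259.9 and 241 CPM in the CX01 libraries. The libraries of the strains overlapped and it did not pass the test (log2 0.022, adjusted p = 0.575); with library size only it was called lower (log2 -0.19, adjusted p = 0.000246). The paralogs of COPII genes went both ways. SED4, related to SEC12, was higher like it (log2 0.71), whereas SFB2 and SFB3, related to SEC24, were lower at -0.31 and -0.18. SEC24 exceeded SFB3 per kilobase by 2.09 ± 0.0551 times in CX01F and 1.49 ± 0.0313 times in CX01. Of the 12 partners listed for COPII, many of them cargo receptors, 9 were higher, 2 lower and 1 not called, with a median log2 change of 0.58, and with library size only 7 were higher and 3 lower. The receptor subunit ERP2 rose most, at 83.7 ± 1.66 CPM in the evolved strain and 44.4 ± 1.46 CPM in the parent (log2 0.91, adjusted p = 1.52e-12), and SFB2 fell most.

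COPI returns vesicles to the ER, and its 7 coatomer subunits include 4 SEC genes. SEC28, the epsilon subunit, which stabilises the alpha subunit Cop1, changed most of all 36. It was at 186, 188 and 183 CPM in the CX01F libraries and 70.3, 68.6 and 69.7 CPM in the CX01 libraries. Its lowest CX01F library was at more than 2 times its highest CX01 library, and it rose 2.67-fold (log2 1.42, SE 0.0264, adjusted p = 8.77e-16). The large subunits moved far less. SEC27, the beta prime subunit, was at log2 0.38, SEC26, the beta subunit, at 0.19, and SEC21, the gamma subunit, at 0.084. With library size only SEC26 was at -0.022 and not called, and SEC21 turned lower (log2 -0.12, adjusted p = 0.00023).

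Per kilobase of coding length SEC28 stood at 208 ± 3.25 CPM per kb in CX01F and 78.1 ± 0.963 in CX01. In CX01 it was below 5 of the other 6 coatomer subunits, and in CX01F it was above all 6. Its share of the summed level of the coatomer was 22.1% ± 0.204 in CX01F and 11.4% ± 0.181 in CX01 (SD, n = 3). The remaining subunits, named after their values were seen, were higher with TMM, with COP1 at log2 0.54, RET2 at 0.29 and RET3 at 0.22. RET3 was not called with library size only (log2 0.0080, adjusted p = 0.815) or with upper-quartile scaling (log2 0.067, adjusted p = 0.0714). Of the 9 partners listed for COPI 8 were higher and 1 lower with TMM, but 4 were higher, 4 lower and 1 not called with library size only. Of all tested genes 36.2% were then higher and 55.6% lower. ARF1, the GTPase that recruits the coat, was at 299 ± 9.83 CPM in the evolved strain and 128 ± 2.42 CPM in the parent (log2 1.23, adjusted p = 1.68e-14). ARF1 has a close copy in ARF2, so its reads may have been split between them. ARF2 was at 484 ± 7.53 CPM in the evolved strain and 456 ± 12.1 CPM in the parent (log2 0.089, or -0.12 with library size only). GEA1, an exchange factor for Arf, was lower (log2 -0.21).

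**Figure D2:**
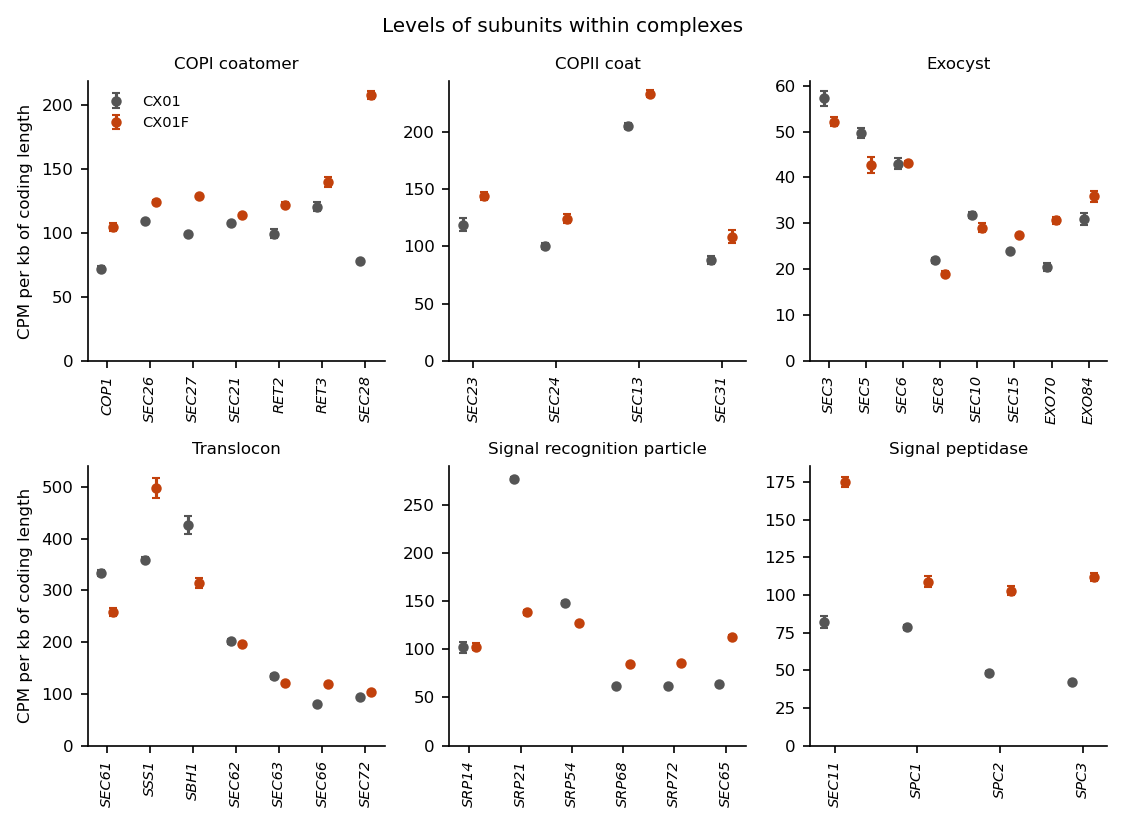
Level of each subunit of 6 complexes as CPM per kb of coding length, mean and SD over 3 libraries of CX01 (grey) and CX01F (orange); each panel has its own axis from 0. SEC28 goes from 78.1 to 208 CPM per kb while the other coatomer subunits stay between 72.1 and 140.0, and the exocyst subunits cross: SEC3, SEC5, SEC8 and SEC10 are lower and SEC15, EXO70 and EXO84 higher in CX01F.

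The pair that recycles SNAREs went in opposite directions. SEC17, the yeast alpha-SNAP, was at 146, 148 and 147 CPM in the CX01F libraries and 236, 244 and 242 CPM in the CX01 libraries, with no overlap, and fell 1.64-fold (log2 -0.71, SE 0.0253, adjusted p = 1.3e-12). SEC18, the NSF ATPase that Sec17 brings to SNARE complexes, was at 188, 191 and 186 CPM in the CX01F libraries and 117, 125 and 115 CPM in the CX01 libraries. It rose 1.58-fold (log2 0.66, SE 0.0313, adjusted p = 4.01e-11). The ratio of SEC18 to SEC17 per kilobase was 0.494 ± 0.00571 in CX01F and 0.191 ± 0.0068 in CX01 (SD, n = 3), and this ratio does not depend on the scaling of the libraries.

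The 3 other SEC genes of this step, which encode SNAREs and a tether subunit, changed little. SEC22, a SNARE of transport in both directions, was lower (log2 -0.13, adjusted p = 0.00288). SEC39, a subunit of the Dsl1 complex that receives vesicles at the ER, was higher (log2 0.24, adjusted p = 1.35e-05) but not called with library size only (log2 0.037). SEC20, a SNARE of the return to the ER, was at 49.2, 53.8 and 50.2 CPM in the CX01F libraries and 55, 54.8 and 52.2 CPM in the CX01 libraries. The groups overlapped and it did not pass (log2 -0.081, adjusted p = 0.0592). It was called lower without CX01F replicate 2 (adjusted p = 0.0107) and without CX01 replicate 3 (0.0131), and with library size only (log2 -0.29). Of 18 partners 5 were higher, 11 lower and 2 not called (4 higher and 13 lower with library size only). UFE1, the SNARE of the ER membrane, on chromosome XV, fell 4-fold (57.6 ± 0.715 CPM in the evolved strain and 231 ± 11.1 CPM in the parent, adjusted p = 5.3e-16), and TRS20, a subunit of the TRAPP tether, rose most (log2 0.52). YPT1, the Rab GTPase of ER to Golgi transport, was slightly lower (log2 -0.13).

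At the Golgi exit SEC14, which exchanges phosphatidylinositol and phosphatidylcholine and is needed for vesicles to leave the Golgi, was at 202, 200.2 and 204 CPM in the CX01F libraries and 106, 108 and 104 CPM in the CX01 libraries. It was 1.91-fold higher, just short of 2-fold (log2 0.93, SE 0.0258, adjusted p = 7.43e-14). SEC7, the Arf exchange factor of the late Golgi, was also higher with TMM (log2 0.28, adjusted p = 1.66e-06), but it did not pass with library size only (log2 0.071, adjusted p = 0.0548). Of the 10 partners 5 were higher and 5 lower (4 and 6 with library size only). TLG1, a SNARE of the late Golgi, led at log2 0.81, and TLG2, another such SNARE encoded on chromosome XV, was lowest at -1.55.

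**Figure D3:**
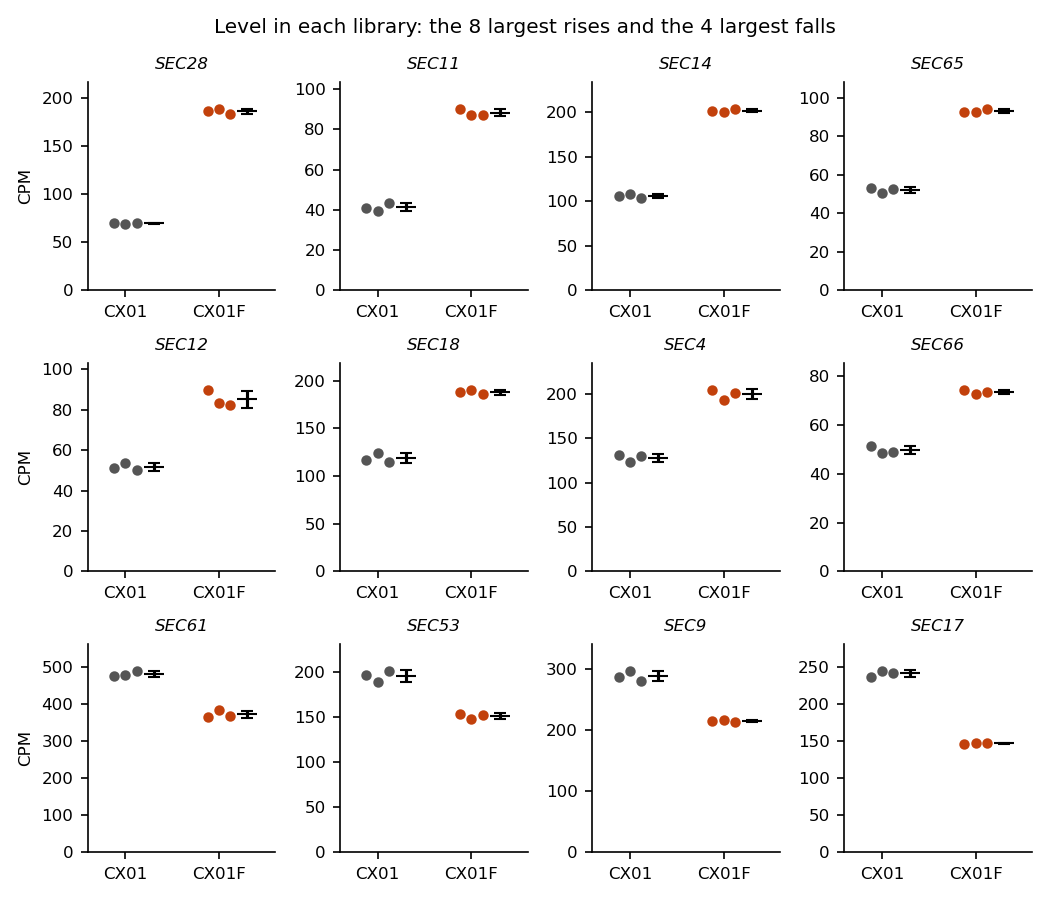
CPM in each library (points; TMM scaling) with mean and SD to the right of each group, for the 8 SEC genes with the largest rises and the 4 with the largest falls; each axis starts at 0. In none of these 12 genes do the 3 CX01F and 3 CX01 libraries overlap.

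In exocytosis the genes mostly fell by small steps. The exocyst tethers vesicles to the plasma membrane, and 6 of its 8 subunits are SEC genes. SEC5 changed most of these 6, at 128, 128 and 119 CPM in the CX01F libraries and 143, 144 and 148 CPM in the CX01 libraries (log2 -0.22, SE 0.0318, adjusted p = 1.4e-05). SEC8, SEC3 and SEC10 were lower as well, at log2 -0.20, -0.14 and -0.13. SEC15, the subunit that binds the Rab GTPase Sec4 on the vesicle, was higher (log2 0.19, adjusted p = 1.13e-05), but with library size only it was at -0.013 and not called. SEC6 was at 103, 105 and 104 CPM in the CX01F libraries and 101, 106 and 106 CPM in the CX01 libraries, with overlapping groups (log2 0.0058, adjusted p = 0.847), and was called lower with library size only (log2 -0.20, adjusted p = 7.98e-06).

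The exocyst subunits that are no SEC genes were higher with TMM. EXO70, which binds the plasma membrane, was at 57.4 ± 1.38 CPM in the evolved strain and 38.4 ± 1.55 CPM in the parent (log2 0.58, adjusted p = 1.22e-09), and EXO84 was at log2 0.21, or 0.0051 and not called with library size only. EXO70 held 11% ± 0.274 in CX01F and 7.35% ± 0.303 in CX01 of the summed level of the complex per kilobase, while SEC5 held 15.3% ± 0.465 in CX01F and 17.8% ± 0.494 in CX01 (SD, n = 3). SEC3 was the highest subunit in each strain (52.1 ± 0.966 CPM per kb in CX01F and 57.3 ± 1.61 in CX01). The lowest was SEC8 in CX01F (19 CPM per kb) and EXO70 in CX01 (20.5 CPM per kb). The highest subunit exceeded the lowest by 2.74 times in CX01F and 2.79 times in CX01.

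SEC4, the Rab GTPase of secretory vesicles, was higher while the 3 other genes of its role were lower. It was at 204, 193 and 201 CPM in the CX01F libraries and 131, 123 and 129.6 CPM in the CX01 libraries, 1.56-fold higher (log2 0.64, SE 0.0314, adjusted p = 5.8e-11), and per kilobase it was the highest of the 36 SEC genes in CX01F (308 ± 8.64 CPM per kb in CX01F and 198 ± 6.85 in CX01). SEC2, its exchange factor, was at log2 -0.17 (adjusted p = 9.94e-05), and SEC1, which binds assembled SNAREs, was at -0.17 (1.52e-05). SEC9, the SNAP-25 family SNARE of the plasma membrane, was at 215 ± 2 CPM in the evolved strain and 289 ± 8.4 CPM in the parent and fell 1.34-fold (log2 -0.42, SE 0.0275, adjusted p = 1.65e-09). Of 12 partners 4 were higher, 6 lower and 2 not called (3 higher and 8 lower with library size only). SSO1, the SNARE that pairs with Sec9, was at 372 ± 2.21 CPM in the evolved strain and 142 ± 8.77 CPM in the parent (log2 1.39, adjusted p = 5.2e-14), whereas SNC1, a SNARE of the vesicle, was lower (log2 -0.76). Each of these has a related copy, SSO2 (log2 0.78) and SNC2 (log2 -0.18), and reads of similar copies may have been shared.

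Sec53 and Sec59 act in the making of glycan precursors for glycosylation in the ER. SEC53, the phosphomannomutase that makes mannose-1-phosphate, was at 154, 148 and 152 CPM in the CX01F libraries and 197, 189 and 202 CPM in the CX01 libraries and fell (log2 -0.37, SE 0.0294, adjusted p = 1.64e-08). SEC59, the dolichol kinase, was higher with TMM (log2 0.18, adjusted p = 0.00131) but at -0.024 and not called with library size only.

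Over the 80 partners of all roles 42 were higher, 32 lower and 6 not called, and their median log2 change was 0.12, where 45.5% of all tested genes were higher and 45.9% lower. This balance moved with the scaling, and so did that of all tested genes. With library size only 31 (38.8%) were higher and 43 (53.8%) lower, against 36.2% and 55.6% of all tested genes. With the upper quartile 34 (42.5%) were higher and 38 (47.5%) lower, against 38.6% and 52.8%. Chromosomes XI and XV hold 12 of the partners, and all 12 were lower, 5 by at least 2-fold, with a median log2 change of -0.91. The medians of all tested coding genes there were close to this, at -0.82 on XI and -0.86 on XV. The 12 partners were lower under all 3 scalings. Library size only and the upper quartile move log2 changes down (medians of -0.207 and -0.148). Genes lower with TMM were thus bound to stay lower. Of the 68 partners elsewhere 42 were higher and 20 lower with TMM, but 31 and 31 with library size only, and 1, KAR2, was at least 2-fold lower. With TMM the median log2 change of these 68 was 0.23, against 0.12 for all tested coding genes on other chromosomes. The part of these chromosomes in the falls of the partners was not tested here.

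**Figure D4:**
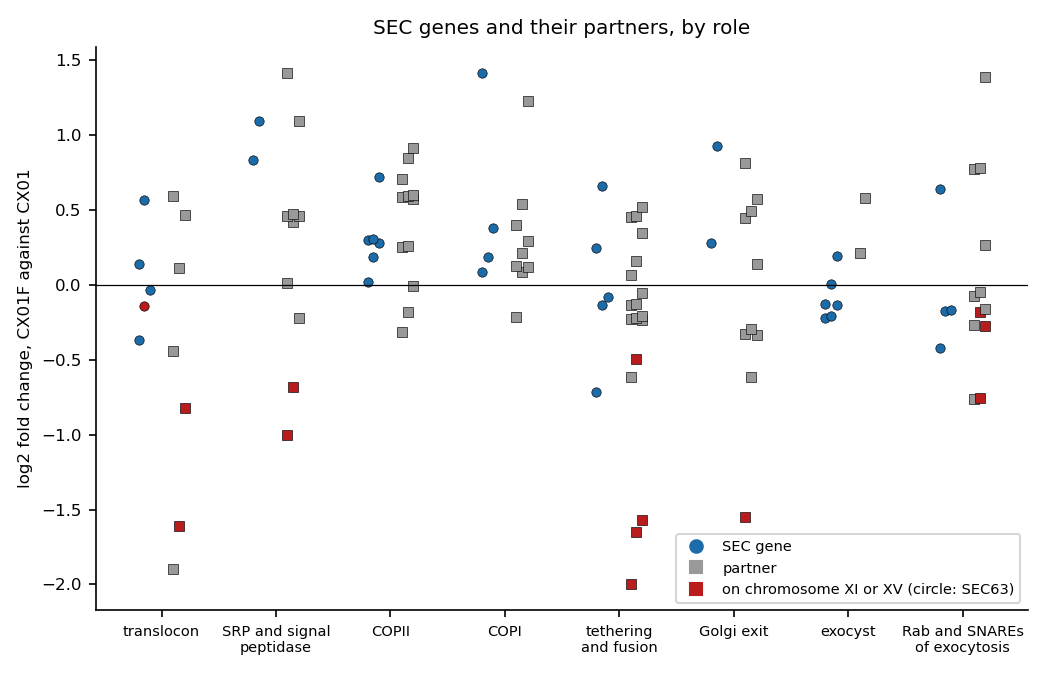
Log2 fold change (CX01F against CX01, TMM scaling) of SEC genes (circles) and of the 80 partners (squares), by role; red marks genes on chromosome XI or XV, spread sideways only for legibility. The 12 red squares all lie below 0, and the single red circle, SEC63, lies at -0.14.

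The 4 SEC genes that rose most, SEC28, SEC11, SEC14 and SEC65, are short. The SEC genes were then divided at a coding length of 1 kb, a limit chosen after these values were seen, and no test was made. Of the 12 with a coding length under 1 kb 8 were higher and 3 lower, with a median log2 change of 0.38, and of the 24 longer ones 12 were higher and 9 lower, with a median of 0.053. Over all tested coding genes 46.3% of the shorter and 46.9% of the longer were higher, and 1055 of 2359 shorter and 1587 of 3494 longer ones were lower. These counts are with TMM. With library size only calls changed in both groups of SEC genes, so both balances moved with the scaling. Among the shorter, SEC13 and SEC72 were no longer called and SEC62 was called lower. Among the longer, SEC7, SEC15, SEC23, SEC26, SEC39 and SEC59 were no longer called. SEC21, SEC6, SEC16 and SEC20, also of the longer group, were then called lower. Spearman's rho between log2 change and coding length was -0.16 over the 36 SEC genes and -0.029 over 5853 coding genes, as a description across genes of the same libraries. SEC4 and SEC66 are under 1 kb too, and so is SEC17, which fell most.

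**Figure D5:**
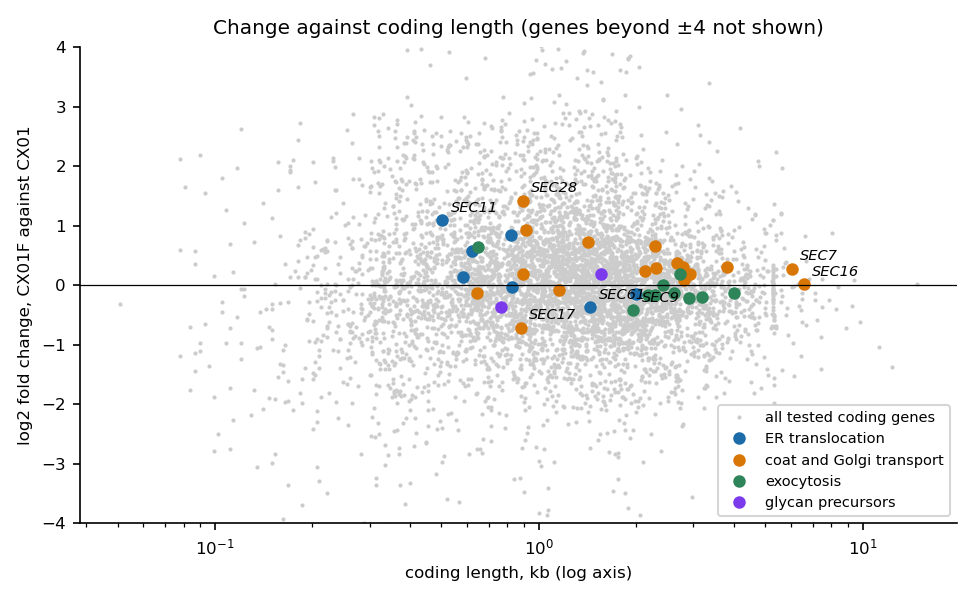
Log2 fold change (CX01F against CX01, TMM scaling) against coding length in kb on a log axis, for the SEC genes by step (coloured) and all tested coding genes (grey; those beyond a log2 change of 4 in size are not drawn). The SEC genes of 1 kb or more lie between -0.42 (SEC9) and 0.72 (SEC12), and those under 1 kb between -0.71 (SEC17) and 1.42 (SEC28).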

How the data were processed

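The deposited table holds raw counts of reads for each gene. TopHat2 2.0.12 and Cufflinks, besides featureCounts with Subread 1.4.6, appear in the submitters' processing notes, which do not give their roles. Genome build, gene annotation, strandedness and the handling of reads that map to several places are not given in the sources used here, so reads of similar copies or of overlapping genes may have been shared. One row without a gene name (0.00877% to 0.044% of a library) was left out. In R 4.3.3, edgeR 4.0.16 filtered genes with filterByExpr (minimum count 10, minimum total 15; 6129 kept, 271 removed), scaled by TMM and tested strain by quasi-likelihood (4 residual degrees of freedom, two-sided, Benjamini-Hochberg over all tested genes, called at an adjusted p under 0.05). SE is the log2 change over the root of F. Alternatives used DESeq2 1.42.0, limma 3.58.1, other scalings, no filter, a replicate block, 1 library left out and no genes of chromosomes XI and XV. Chromosomes and coding lengths are from RefSeq R64, which matched 6083 of 6400 names and all 36 SEC genes. It shows no gene overlapping a SEC gene, and no coordinates or sequences are printed because the authors' build is not given.

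The members, the 80 partners and the tests were chosen with earlier results of these data known. Values by library are given for the SEC gene of largest absolute change in each role and for those changed 2-fold or not called. Named partners are the largest called rise and fall in each role at 10 CPM or more and the paralogs of SEC genes, besides subunits of shared complexes and the copies ARF2, SSO2 and SNC2. Depth was 51537969 to 63183824 counts, where a count of 0 allows up to 0.0475 to 0.0582 CPM (counting error only). Over the SEC genes the SD between 3 libraries was 0.0606% to 6.47% of the mean.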

Additional observations from a re-analysis of the deposited data

How the results depend on the processing

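Scaling and the genes left out moved the counts of SEC genes. With library size only 11 were called higher and 17 lower, 1 of the former at least 2-fold, the coat and Golgi genes had 7 higher and 5 lower, exocytosis had 1 higher and glycan precursors 0 higher, and the median log2 change was -0.044. With upper-quartile scaling 14 were higher and 17 lower, 1 was at least 2-fold higher, the coat and Golgi genes had 5 lower, exocytosis 1 higher and glycan precursors 0 higher, and the median was 0.015. Without chromosomes XI and XV, 1 was at least 2-fold higher, the coat and Golgi genes had 4 lower, glycan precursors 0 higher, and the median was 0.067; SEC63 has no value there. Over all genes these settings moved the log2 changes by medians of -0.207, -0.148 and -0.116, in this order. The direction turned with library size only for SEC26 (-0.022), SEC15 (-0.013), SEC6 (-0.20), SEC13 (-0.023), SEC72 (-0.064), SEC59 (-0.024), SEC21 (-0.12), SEC16 (-0.19), SBH2 (-0.10) and SRP14 (-0.19). It turned with the upper quartile for SEC6 (-0.14), SEC72 (-0.0050), SEC21 (-0.064), SEC16 (-0.13), SBH2 (-0.036) and SRP14 (-0.14), and without XI and XV for SEC6 (-0.11), SEC21 (-0.032), SEC16 (-0.094), SBH2 (-0.0036) and SRP14 (-0.10). With the upper quartile SEC26, SEC15, SEC13, SEC59, SEC72, SBH2, RET3 and EXO84 lost their call, and SEC21 was called lower. Without XI and XV the call was lost for SEC72, SEC59, SEC21 and SBH2. In both settings SEC62, SEC20, SEC6, SEC16 and SRP14 became called lower. With 1 library left out 20 SEC genes were higher each time and 12 to 13 lower, the median ran from 0.138 to 0.167, and uncalled values turned sign for SEC6 (-0.018 to 0.017), SEC16 (-0.011 to 0.059) and SRP14 (-0.031 to 0.051). DESeq2, limma voom, DESeq2 size factors and no filter changed the call of 0 of the 36. The replicate block gave 20 higher and 13 lower, adding SEC20 (adjusted p = 0.0435). Deviations of same-numbered libraries correlated at -0.00975, 0.153 and 0.0205, and the value of the libraries numbered 2 was the highest of all pairs. CX01F replicate 1 correlated best with CX01 replicate 3 and CX01F replicate 3 with CX01 replicate 1, so the numbers were not taken as pairs. A shared effect in the libraries numbered 2 was not tested beyond this block. Without length scaling the exocyst subunits spanned 3.64 times in CX01F and 5.99 times in CX01. The lowest count of a SEC gene was 1966, far above the limit that a count of 0 allows.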

Other observations

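The libraries numbered 2 differed from their strain's mean with the length of the gene, in both strains. Over the 36 SEC genes Spearman's rho between the deviation from the strain mean and coding length was 0.59 in CX01F replicate 2 and 0.58 in CX01 replicate 2, and from -0.41 to -0.33 in the other 4 libraries. Over 5853 coding genes the values were 0.40 and 0.42, and from -0.32 to -0.16 in the others. The 3 deviations within a strain sum to 0, so they are not independent. Among the SEC genes this shows in SEC16, the longest, where the libraries numbered 2 were highest in each strain (263 and 259.9 CPM, against 241 to 248 CPM in the other 4). The labels give no batch, and the part of this pattern in the tests was not tested beyond the block on replicate number.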
